A study of Mus musculus with 4 samples.

Results

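RYBP occupancy over protein-coding exons away from promoters is described here. A merged region counted as exonic when it was shorter than 4000 bp, lay more than 2.5 kb from every start site of a protein-coding gene and more than 1 kb from every start site of a noncoding gene, and overlapped coding sequence by at least 1 bp. Of the 22409 merged RYBP regions, 1670 met this rule. They belonged to 1299 host genes. The rule used position and width, and neither CpG content nor the fold enrichment of the peaks was part of it.

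ChIP-seq for RYBP was available from 2 replicates of FLK1+ mesoderm sorted from embryoid bodies, the aggregates that mouse ES cells form as they differentiate. All cells were wild type, of strain C57Bl/6 X Sv129, with no transgene named and no agent given, and the labels place them at day 3.75, while a slightly later day is given in the study's methods. The antibody was raised against DEDAF, another name of RYBP; the design text of the series speaks instead of SCL ChIP and of a FLK1+ PDGFRa- gate, from separate differentiations of wild-type ES cells. The 2 input samples were not analysed here. The cells were assayed in bulk, so that occupancy in fewer cells and weaker occupancy in every cell cannot be told apart, and the files hold no expression values against which the FLK1+ label could be checked.

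RYBP is a subunit of the non-canonical Polycomb repressive complexes PRC1, in which it pairs with RING1B, the enzyme that adds ubiquitin to histone H2A. One of these complexes is brought to unmethylated CpG islands by the CXXC protein KDM2B. A CpG island is a stretch in which the dinucleotide CG, depleted from most of the mouse genome, is kept at high density; many islands lie at promoters, but some lie within the coding exons of genes, often of developmental genes.

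The coding sequence under the exonic regions ranged from CpG-packed to CpG-free. Each sequence below is read 5′ to 3′ on the coding strand in build mm9, with every CG in capitals, and comes from a 200 bp window of highest CpG count within the coding exon. They show what regions of high fold enrichment in both replicates (Otud7a, Klhl31, Srrm3 and Sobp, which rank directly after Nrg2, whose sequence is not printed) and of highest CpG density (Asb18 and Rtn4rl2) looked like, with the 192 coding bases of a region without any CpG (Cul9) as the contrast, which was added after the values were seen. Their positions were chr7:70903046-70903245 on the plus strand for Otud7a, chr9:77503099-77503298 on the plus strand for Klhl31, chr5:136344071-136344270 on the plus strand for Srrm3, chr10:42741172-42741371 on the minus strand for Sobp, chr1:91864849-91865048 on the minus strand for Asb18, chr2:84712390-84712589 on the minus strand for Rtn4rl2, and chr17:46675174-46675365 on the minus strand for Cul9.
Otud7a: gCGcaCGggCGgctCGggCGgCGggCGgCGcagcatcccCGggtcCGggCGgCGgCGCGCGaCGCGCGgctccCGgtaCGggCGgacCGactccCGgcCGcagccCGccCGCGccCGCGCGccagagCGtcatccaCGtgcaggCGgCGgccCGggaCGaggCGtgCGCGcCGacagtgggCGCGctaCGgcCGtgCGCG
Klhl31: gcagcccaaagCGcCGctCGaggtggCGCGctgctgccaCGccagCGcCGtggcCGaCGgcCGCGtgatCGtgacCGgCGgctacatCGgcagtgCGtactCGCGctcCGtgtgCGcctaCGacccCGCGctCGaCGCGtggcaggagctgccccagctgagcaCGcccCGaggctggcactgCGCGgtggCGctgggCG
Srrm3: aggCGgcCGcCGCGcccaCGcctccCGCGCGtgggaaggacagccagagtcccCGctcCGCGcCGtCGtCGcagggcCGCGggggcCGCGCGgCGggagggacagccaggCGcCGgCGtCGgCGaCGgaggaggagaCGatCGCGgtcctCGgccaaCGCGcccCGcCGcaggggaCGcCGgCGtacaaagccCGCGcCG
Sobp: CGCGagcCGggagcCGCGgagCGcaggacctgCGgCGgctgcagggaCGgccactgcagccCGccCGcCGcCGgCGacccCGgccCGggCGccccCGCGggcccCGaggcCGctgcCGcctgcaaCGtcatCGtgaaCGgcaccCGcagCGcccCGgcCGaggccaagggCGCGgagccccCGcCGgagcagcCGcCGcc
Asb18: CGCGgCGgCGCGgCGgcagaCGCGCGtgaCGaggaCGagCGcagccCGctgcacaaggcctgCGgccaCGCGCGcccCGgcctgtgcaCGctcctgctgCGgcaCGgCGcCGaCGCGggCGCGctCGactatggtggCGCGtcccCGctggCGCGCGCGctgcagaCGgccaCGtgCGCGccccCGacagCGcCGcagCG
Rtn4rl2: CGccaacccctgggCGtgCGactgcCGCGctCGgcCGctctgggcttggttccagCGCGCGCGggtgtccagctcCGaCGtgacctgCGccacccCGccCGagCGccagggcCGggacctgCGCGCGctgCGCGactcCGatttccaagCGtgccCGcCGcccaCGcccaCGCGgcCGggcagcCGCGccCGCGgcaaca
Cul9: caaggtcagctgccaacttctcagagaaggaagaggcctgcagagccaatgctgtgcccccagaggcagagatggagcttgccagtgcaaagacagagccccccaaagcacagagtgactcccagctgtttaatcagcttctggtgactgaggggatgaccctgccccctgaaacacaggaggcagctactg
The Otud7a window held 46 CpG and the Asb18 window 43, against 0 in the Cul9 stretch. GC content differed as well, at 84.5%, 81.0% and 57.3%.

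The first question was how dense in CpG the exonic regions were. Their median was 2.88 CpG per 100 bp, with 5% of the regions below 0.998 and 5% above 7.38. Intronic regions selected by the same distances had a median of 1.46, intergenic regions of 1.78, and regions at coding start sites of 6.38. The exonic regions thus lay between the promoters and the other distal regions. Overlap with coding sequence was part of the rule, and coding sequence at these distances was itself richer in CpG than introns. Of 182680 coding windows of 500 bp, 60674 held fewer than 1 CpG per 100 bp, against 983102 of 1529539 intronic windows. Coding exons without an exonic region had a median of 2.22. The part of this background in the differences between classes was not tested. The ordering of exonic over intronic held in each replicate list taken alone, at 3.42 against 1.42 in replicate 1 and 3.34 against 1.61 in replicate 2, a difference of 1.86 ± 0.189 (SD, n = 2). An exact permutation test over 2 replicates cannot reach significance, and regions of one library are not replicates, so that differences between classes are given with their value in each replicate and no p-value. Observed over expected CpG, which corrects for base composition, had a median of 0.362 in exonic, 0.216 in intronic and 0.691 in start-site regions.

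Few exonic regions met a CpG island criterion, here at least 200 bp of width, at least 50% GC and an observed over expected CpG of at least 0.6. It was met by 226 of them, or 13.5% (exact 95% interval 11.9% to 15.3%, counting error only), against 39.5% of all merged regions, 63.5% of those at start sites, 471 of the 4690 intergenic regions and 3.24% of the intronic ones. In most regions the coding part was denser in CpG than the rest. Coding exons without a region were not compared with their flanks, so this gap is not shown to be particular to RYBP regions. In the 1100 regions with at least 100 bp of coding and 100 bp of other sequence, the coding part had a median of 4.61 CpG per 100 bp and the rest 1.88. The coding part was the denser one in 1020 of these regions (92.7%, interval 91.0% to 94.2%). Regions found in both replicates showed a wider gap, 7.37 against 2.48 over 404 regions. Within the coding sequence under the regions, 72.9% of codons ended in G or C, against 55.9% in exons of the same kind without a region.

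**Figure D1:**
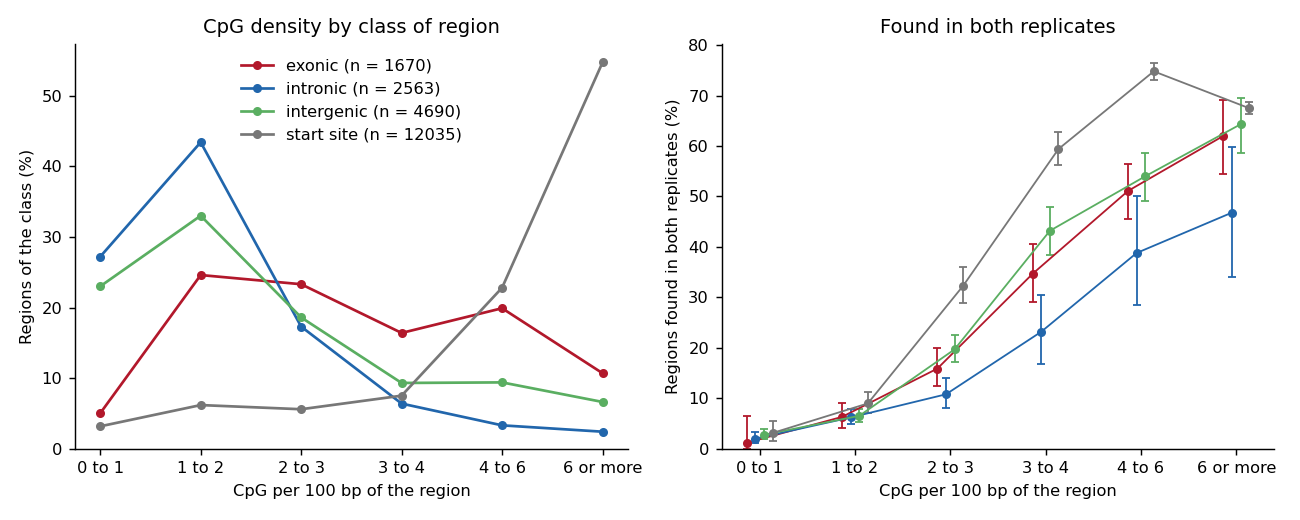
The left panel plots the percentage of regions of each class in 6 bins of CpG per 100 bp, and the right panel the percentage of each bin found in both replicates, with exact 95% intervals for counting error. Exonic regions peak at 1 to 2 CpG per 100 bp with a broad shoulder up to 6, and the share found in both rises from 1.19% to 62.0% across the bins.

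Sharing between replicates followed CpG density. A region counted as found in a replicate when a peak of that replicate overlapped it by at least 1 bp. Of the 1670 exonic regions 465 were found in both, a share of 27.8% (interval 25.7% to 30.1%), against 44.2% of all merged regions. The share was 58.6% among the 665 exonic regions left at a −log10 q of at least 2, and 17.4% where each replicate had to cover 50% of the region. Another 471 came from replicate 1 alone and 734 from replicate 2 alone. Intronic regions were found in both in 9.01% (7.93% to 10.2%) of cases and intergenic regions in 19.8%. Among exonic regions the shared ones had a median of 4.39 CpG per 100 bp, against 2.24 for replicate 1 alone and 2.51 for replicate 2 alone. A merged region is the union of its peaks and is therefore wider when both replicates contribute, at a median of 1440 bp against 549 and 564 bp. The peaks of a single list are not unions. In replicate 1 the 503 exonic peaks that met a replicate 2 peak had a median of 4.94 CpG per 100 bp and the 471 others 2.24. In replicate 2 the values were 5.05 over 505 peaks and 2.5 over 735. Shared peaks were also the wider ones, at a median of 1007 bp against 549 bp in replicate 1 and 1070 bp against 565 bp in replicate 2. The part of width in sharing was not tested.

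Over all densities a larger share of exonic than of intergenic regions was found in both replicates, 27.8% against 19.8%. At equal CpG density the exonic share was the lower one in all 6 bins, but the intervals of the 2 classes overlapped in each of the 6. The gap was widest at 3 to 4 CpG per 100 bp, at 34.7% (29.0% to 40.6%) against 43.2% (38.5% to 48.0%). In the bin of 4 to 6 CpG per 100 bp, 51.1% of exonic and 54.0% of intergenic regions were found in both replicates, with overlapping intervals, and 74.8% of start-site regions were. Exonic regions of fewer than 1 CpG per 100 bp were found in both in 1 of 84 cases. Peak significance moved with both measures: with the exonic peaks of a list cut into 4 equal bins by −log10 q, the authors' false discovery value, the top bin of replicate 1 had a median of 5.71 CpG per 100 bp and was shared in 90.6% of cases, whereas the bottom bin had 2.16 and 22.6%. In replicate 2 these values were 5.99 and 87.1%, against 2.30 and 11%. The separate parts of significance and CpG content were not tested.

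The authors' fold enrichment, the ratio of pile-up to local background, was close over exons to that over intergenic sequence. In shared exonic regions the median was 3.33 for replicate 1 and 3.78 for replicate 2, next to 3.32 and 3.69 in intergenic, 3.10 and 3.39 in intronic and 3.52 and 4.04 in start-site regions. Replicate 2 was the higher one in 377 of 465 regions (81.1%), next to 77.7% of all shared merged regions. The share was 77.1% in intronic, 75.6% in intergenic and 76.9% in start-site regions. Across the 465 exonic regions Spearman's rho between the replicates was 0.531. Regions from a single replicate had lower medians, 3.05 and 3.26. The replicate lists held similar shares of exonic peaks, 6.58% of the replicate 1 list (974 peaks) and 6.83% of the replicate 2 list (1240 peaks).

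**Figure D2:**
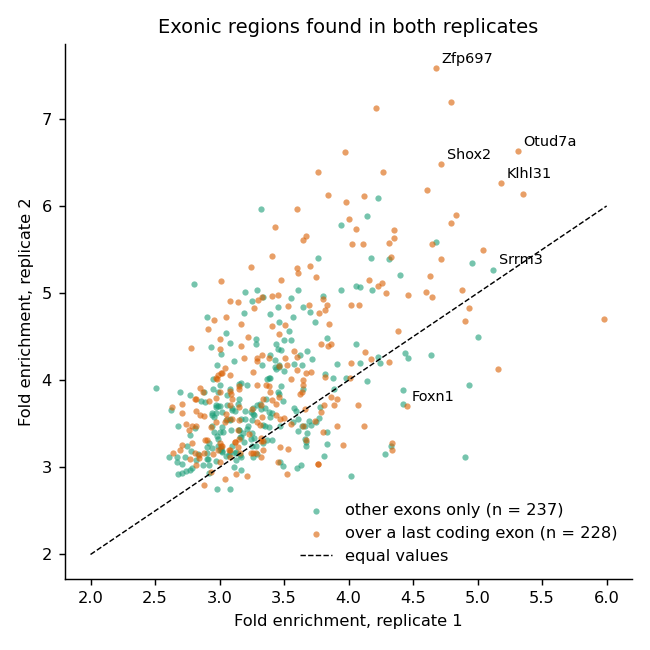
Each point is 1 of the 465 exonic regions found in both replicates, with the authors' fold enrichment in replicate 1 on the horizontal and in replicate 2 on the vertical axis, coloured by whether the region overlapped a last coding exon. Most points (81.1%) lie above the dashed line of equal values, next to 77.7% of all shared merged regions. Otud7a, Klhl31, Zfp697 and Shox2 stand at the upper right.

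The 10 exonic regions that ranked highest by whichever fold enrichment was lower in their pair of replicates lay in Nrg2, Otud7a, Klhl31, Srrm3, Sobp, Spnb4, Maff, Vstm2l, Prdm13 and Scrt2. Otud7a, which encodes a deubiquitinating enzyme, carried a region of 2433 bp at chr7:70902219-70904651 whose fold enrichment was 5.31 in replicate 1 and, in replicate 2, 6.63. This region covered the stop codon and lay 313798 bp from the nearest start site of the gene. Klhl31, a kelch-family gene of muscle, had 5.18 and 6.26 over 843 bp, of which 86.6% was coding. Nrg2, a neuregulin growth factor that signals through ERBB receptors, had 5.35 and 6.14, and its region held 8.77 CpG per 100 bp. Regions over genes of the neural lineage were among them: Prdm13, a zinc finger regulator of spinal cord neurons, had 4.83 and 5.90, and Scrt2, a SNAIL-family repressor of neural progenitors, had 4.79 and 5.80. Maff, a small MAF transcription factor, had 4.88 and 5.04. Sobp had 5.04 and 5.49 in a region of 1674 bp that was coding throughout. Of these 10 regions, 8 lay over the last coding exon, next to 228 (49.0%) of the 465 exonic regions found in both replicates. Srrm3, a neuronal splicing factor gene (5.12 and 5.27), and Spnb4, the gene of a spectrin of the axon initial segment (4.96 and 5.35), were the exceptions among the 10.

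All 5 regions of highest CpG density were found in both replicates. They reached 12.8 CpG per 100 bp in Asb18, 12.6 in Rtn4rl2, 12.1 in Basp1, 12 in Apba1 and 11.9 in Neurl1a. Asb18 encodes an ankyrin repeat protein with a SOCS box, and its region had a fold enrichment of 3.25 and 4.91. Rtn4rl2 encodes a Nogo receptor family member (3.33 and 4.29) and Basp1 a membrane protein of growth cones (3.85 and 4.65). Apba1, an adaptor of synaptic vesicle release, had 4.46 and 4.26 and was the only one of the 5 with the lower value in replicate 2. Their observed over expected CpG, 0.951 to 1.02, showed no depletion of the dinucleotide. The lowest density was 0, in AA415398, Cul9 and H60b, each found in a single replicate at a fold enrichment of 3.24, 3.47 and 2.49.

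The widest exonic regions found in both replicates were not the densest. Nfix, a nuclear factor I gene, had a region of 3907 bp with 1.28 CpG per 100 bp and fold enrichments of 3.44 and 3.73. The region over A930004D18Rik measured 3808 bp and held 5.09 CpG per 100 bp. Gm5607 followed at 3761 bp and 3.51.

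One exonic region stood apart from all others. The region at chr4:114740402-114742274 over the last coding exon of Tal1, which encodes SCL itself, was found in replicate 1 alone, where its fold enrichment was 11.3 and its −log10 q 34.1. It held 1.07 CpG per 100 bp and no replicate 2 peak overlapped it. The highest −log10 q of a region from replicate 2 alone was 5.63, over the last coding exon of Tnfrsf11a, the receptor RANK of bone and immune cells, at a fold enrichment of 4.79 and 6.84 CpG per 100 bp.

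How exceptional such exons were was then asked of every coding exon that met the same distances. Of 153861 such exons 2566 carried an exonic region, or 1.67%, with 0.972% by the replicate 1 list and 1.25% by the replicate 2 list. RYBP regions of 4000 bp or more, or nearer to a start site, were not counted here. An exon under such a region alone counted as one without an exonic region. Exons with an exonic region had a median of 4.19 CpG per 100 bp and those without 2.22. The share rose steeply with the CpG density of the 500 bp around the exon, from 0.185% below 1 CpG per 100 bp to 3.93% at 3 to 4, 13.0% at 4 to 6 and 50.5% at 6 or more. The same direction was present within genes. In 944 host genes with at least 5 such exons, some of them without a region, exons with a region had the higher mean CpG density in 675 genes (71.5%), and the most CpG-dense exon of the gene carried a region in 431 (45.7%). Median difference within a gene was 0.723 CpG per 100 bp.

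Coding sequence was then set against introns and intergenic sequence in 500 bp windows at the same distances from start sites. Over all 3 kinds, 0.463% of windows carried a distal region. RYBP regions of 4000 bp or more, or nearer to a start site, were not counted. At 6 or more CpG per 100 bp, 468 of 908 coding windows did, or 51.5% (interval 48.2% to 54.8%). The share was 15.3% (13.1% to 17.7%) over 960 intronic windows and 22.9% (21.5% to 24.3%) over 3382 intergenic ones. In the replicate 1 list the 3 shares were 50.3%, 14.2% and 20.4%, and in the replicate 2 list 53.5%, 15.6% and 23.5%. Coding windows were also higher at 4 to 6 CpG per 100 bp, with 16.3% against 5.90% and 7.60%. The windows differ in more than their class: how well short reads can be placed in them was not measured.

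**Figure D3:**
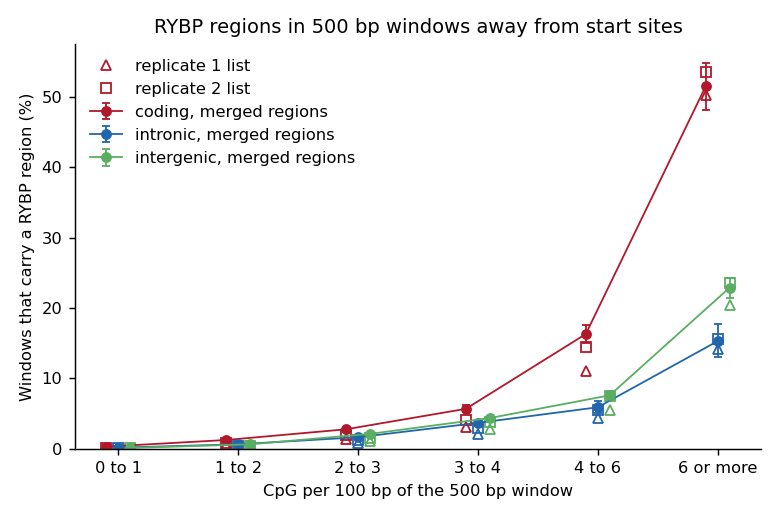
Percentage of 500 bp windows away from start sites that carry a distal RYBP region (vertical axis) by the CpG density of the window (horizontal axis), for coding, intronic and intergenic windows. Filled points are the merged regions with exact 95% intervals for counting error, triangles the replicate 1 list and squares the replicate 2 list; at 6 or more CpG per 100 bp the coding windows stand at 51.5%, above intergenic (22.9%) and intronic (15.3%) windows.

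Last coding exons, which hold the stop codon, were compared with the others. Of the exonic regions 506 (30.3%) overlapped a last coding exon, and 379 held a stop codon. Last exons made up 12.6% of all coding exons at these distances. A region can touch several exons, so the share of regions and the share of exons are not in like units. Of the 2566 exons with an exonic region, 513 were last exons. Regions over a last exon had a median of 3.89 CpG per 100 bp and those over other exons 2.60. They were also found in both replicates more often, in 45.1% (40.7% to 49.5%) of 506 cases against 20.4% (18.1% to 22.8%) of 1164. Regions over a last exon were wider, at a median of 872 bp against 639 bp, and 129 of them touched other coding exons as well. A merged region is wider when both replicates contribute, so these shares cannot be read apart from width. Counted over exons, 2.65% (2.43% to 2.88%) of 19384 last exons and 1.53% of 134477 others carried a region. The replicate lists gave the same order, with 34.2% and 34.9% of their exonic peaks over a last exon. A first coding exon was overlapped by 144 regions.

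The difference between last and other exons was not present at every length or density. Among exons under 100 bp, 1.08% of last and 1.07% of other exons carried a region, and at 100 to 200 bp the values were 1.48% and 1.45%. At 200 to 500 bp they parted, at 4.01% (3.41% to 4.68%) and 2.54% (2.29% to 2.80%), and above 500 bp the intervals overlapped again. By the CpG density of the exon itself, last exons of 6 or more CpG per 100 bp carried a region in 19.0% (16.8% to 21.3%) of cases and others in 9.74% (8.94% to 10.6%). By the density of the 500 bp around the exon the shares came together, at 52.7% (47.2% to 58.2%) and 48.9% (44.3% to 53.6%) in the top bin and 12.6% and 13.1% in the bin of 4 to 6. Exon length moved along with this: within the top bin of surrounding density the median coding length was 564 bp for last and 234 bp for other exons.

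**Figure D4:**
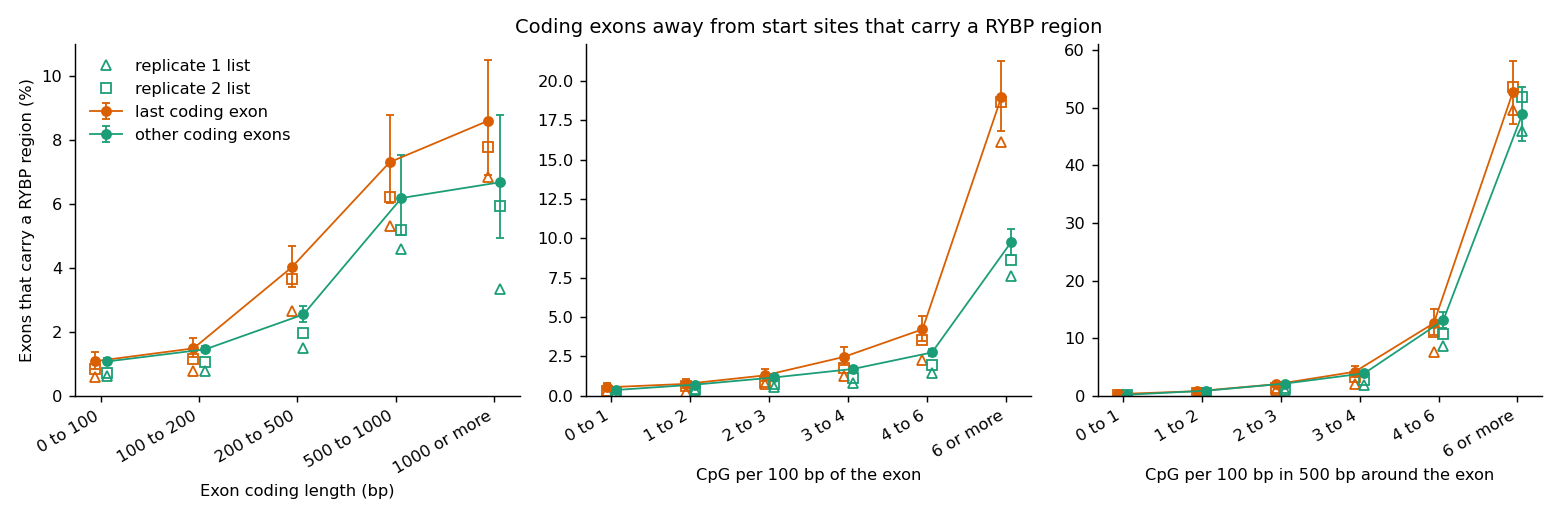
Percentage of coding exons away from start sites that carry an exonic region, for last and other coding exons, by coding length (left), by CpG density of the exon (middle) and by CpG density of the 500 bp around it (right). Filled points are merged regions with exact 95% intervals for counting error, triangles and squares the replicate 1 and 2 lists; the classes part in the middle panel (19.0% and 9.74% in the top bin) and nearly coincide in the right one (52.7% and 48.9%).

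Host genes were considered next. Of 16718 genes with a coding exon wholly at these distances, 1292 carried an exonic region, or 7.73%. Counting those whose exon only partly lay there, there were 1299 host genes, of which 1037 held a single region, 189 held a pair and 73 held 3 or more. The start site of the gene was itself occupied by RYBP in 1017 host genes, or 78.3% (75.9% to 80.5%), against 60.5% of all genes with such an exon and 59.0% of those without a region. Host genes with 3 or more regions had an occupied start in 94.5% of cases. The CpG content of the starts differed less: 73.2% of host genes had a CpG-rich start, meaning 3 or more CpG per 100 bp in the 500 bp on either side of it, against 68.5% of genes without a region. Where the start was CpG-rich, 93.3% of host genes and 81.4% of the other genes had it occupied. Where it was not, the shares were 37.4% and 10.3%. The order was the same among genes of 1 to 4 such exons. There host genes had an occupied start in 75.7% of cases and genes without a region in 49.3%. The shares lay closer together among genes with more exons, at 81.9% and 68.6% for 10 to 19 exons. At 40 or more exons they were 75.6% (60.5% to 87.1%) and 70.4% (63.8% to 76.4%), with overlapping intervals.

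Myh14 carried the most exonic regions, 9 along a gene of 65.0 kb that encodes a nonmuscle myosin heavy chain. Only 1 of the 9 was found in both replicates, with fold enrichments of 2.90 and 3.17, and the CpG density of the 9 spanned 1.74 to 4.69. Cacna1a, the pore subunit of the P/Q-type calcium channel of neurons, had 8 regions, of which 5 were found in both replicates. Its strongest region had 3.76 and 5.40 at 8.76 CpG per 100 bp, and its last exon had 3.65 and 4.0 at 8.27. Spnb4 had 8 regions, 3 of them in both replicates. Next to the region already given, a region of 1591 bp in Spnb4 had 3.32 and 5.96 at 7.79 CpG per 100 bp. Ryr1, the calcium release channel of skeletal muscle, had 8 with 2 in both replicates, the denser of which held 6.82 CpG per 100 bp at 3.88 and 4.02. Unc13a, which primes synaptic vesicles, had 7 regions with 5 in both, up to 4.26 and 5.12 over its last exon. Mast1, Dnahc2 and Bahcc1 had 5 regions each, of which 2, 2 and 0 were found in both. In all 8 genes the start site was occupied.

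**Figure D5:**
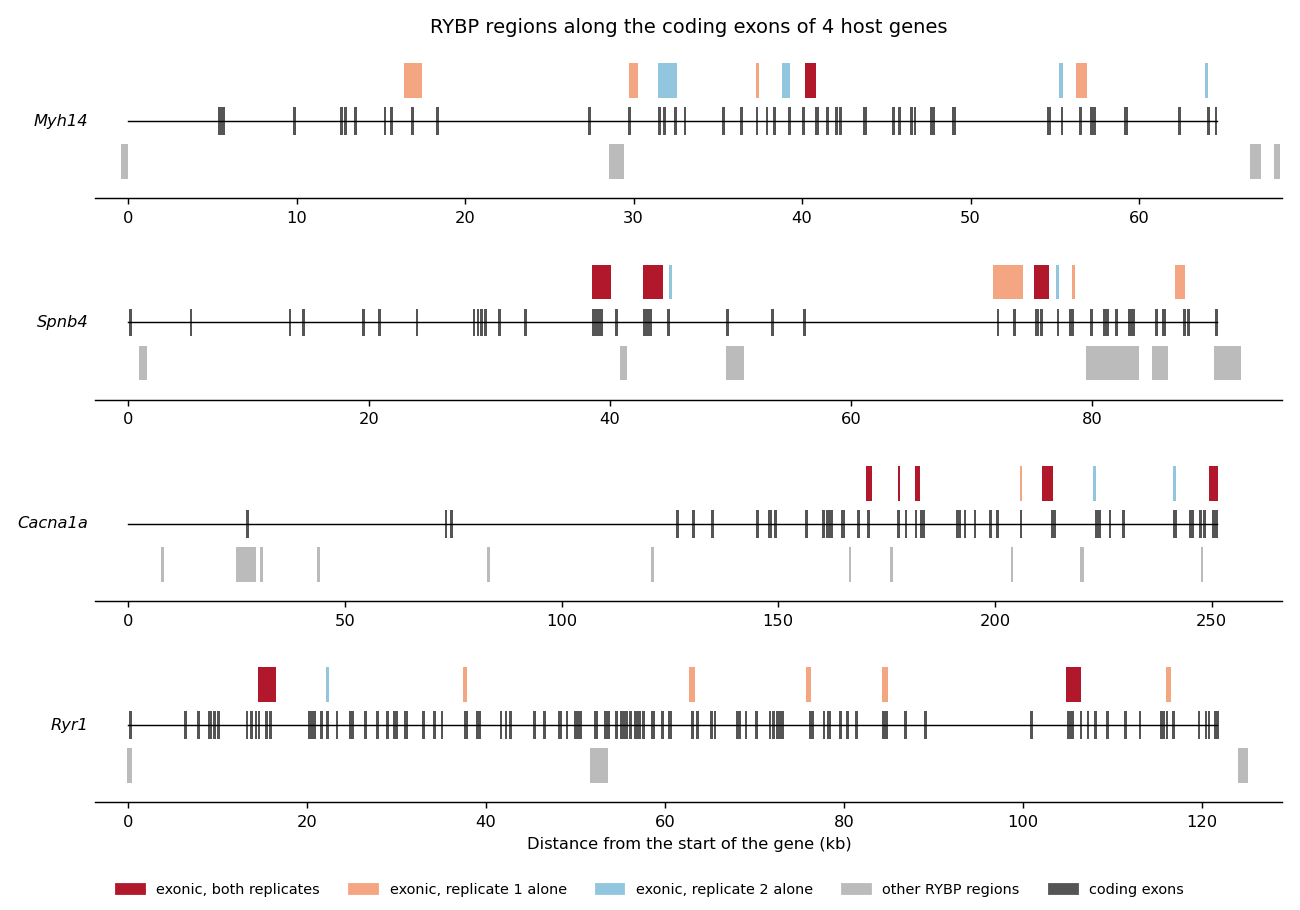
Positions of RYBP regions along Myh14, Spnb4, Cacna1a and Ryr1 by distance from the start of the gene in kb (horizontal axis), with coding exons on the line, exonic regions above it coloured by the replicates that held them and other RYBP regions below it; the narrowest boxes are drawn at a minimum width. The 3 shared regions of Spnb4 and the 5 of Cacna1a are seen among regions held by a single replicate, and 1 of the 9 in Myh14 is shared.

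Transcription factor genes of development were among the hosts. Of 123 homeobox genes with a coding exon at these distances 23 were hosts (18.7%, interval 12.2% to 26.7%), all with an occupied start. Shox2, which acts in limb and heart pacemaker development, carried a region over its last exon at 4.72 and 6.48. Barhl2 and Pitx3, regulators of retinal and dopaminergic neurons, had 4.33 and 5.41 and 4.08 and 4.86. Other developmental factors were hosts in 29 of 124 cases (23.4%, 16.3% to 31.8%). Their list held GATA, FOX, SOX, TBX, bHLH and nuclear receptor genes and the like. Of its 38 regions 18 (47.4%) were found in both replicates, next to 27.8% of all exonic regions. Gata4, a regulator of heart and endoderm, had 4.17 and 5.40 at 4.58 CpG per 100 bp. Nr2f6, an orphan nuclear receptor, had 4.61 and 6.18, and Foxo6, a forkhead factor of the brain, 4.63 and 5.20. Genes of C2H2 zinc finger factors were hosts in 29 of 422 cases (6.87%), next to 7.73% of all genes. They have few exons at these distances, at a median of 3 against 6 for all genes. Of these exons 2.38% carried a region, next to 1.67% of all exons. Zfp697 had 4.68 and 7.58, and Prdm12, of sensory neurons, had 4.06 and 5.73. A list of this kind differs from other genes in exon number and CpG content, whose parts in these shares were not tested.

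Ion channel genes were hosts in 41 of 173 cases (23.7%, 17.6% to 30.7%), next to 7.73% of all genes, and 4.15% of their exons carried a region, next to 1.67% of all exons. Of their 70 regions 23 (32.9%) were found in both replicates, next to 27.8% of all exonic regions. Grin2c, an NMDA receptor subunit, had 4.68 and 5.59. Kcnk12, of the tandem pore potassium channel family, had 3.53 and 4.85. Guidance receptors and ligands followed with 15 of 70 genes (21.4%) and 2.97% of exons; Sema6c had 3.45 and 4.98 and Ntng2 3.69 and 4.86. Extracellular matrix genes were hosts in 20 of 100 cases. They have many exons, at a median of 29.5, and 1.93% of these exons carried a region. Only 3 of their 33 regions (9.09%) lay over a last exon, next to 30.3% of all exonic regions. Col2a1, the collagen of cartilage, had 3.66 and 3.48 at 1.18 CpG per 100 bp, and Ltbp3, which binds latent TGF-beta, had 3.61 and 3.56 across 9 exons.

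Cadherins and protocadherins were hosts in 7 of 45 cases (15.6%, 6.49% to 29.5%), an interval that holds the 7.73% of all genes, among them Celsr3, an atypical cadherin of axon tracts, at 4.09 and 5.07. Genes of Notch, Wnt, BMP, FGF and Hedgehog signalling were hosts in 10 of 87 cases (11.5%, 5.65% to 20.1%). This interval likewise held the share of all genes. Counted over exons, 3.07% in the cadherin list and 3.15% in the signalling list carried a region, next to 1.67% of all exons. Wnt8b had 3.60 and 4.27, Fgf23, a hormone of phosphate balance, 3.46 and 4.16, and the Notch ligand Dll3 3.32 and 3.71. Chromatin regulators were hosts in 14 of 122 cases (11.5%, 6.42% to 18.5%), again around the 7.73% of all genes, while 1.13% of their exons carried a region. Of their 19 regions 1 (5.26%) was found in both replicates, next to 27.8% of all exonic regions. That region lay in Smarcd3, a subunit of the BAF remodelling complex of heart, at 3.28 and 4.47. Cbx2, a subunit of canonical PRC1, carried a region from replicate 2 alone at 3.52. Counting intervals of several lists reach that of all genes, and the lists were drawn up with earlier results of these data known.

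Exonic regions were unevenly spread over the chromosomes. Chromosome 11 held 244 of them and 3.58% of its exons carried one, followed by chromosome 8 with 150 regions and 3.33%. The autosome lowest in this share was chromosome 16 at 0.370%, and X had 3 regions over 5233 exons. Chromosomes 11 and 8 came first in the replicate 2 list as well, at 2.54% and 2.55%, and in the replicate 1 list, at 1.91% and 2.06%. Among exons with at least 2 CpG per 100 bp around them the shares were 7.0% on chromosome 11, 6.62% on chromosome 8 and 1.11% on chromosome 16. Sharing did not follow this order: 22.1% of the chromosome 11 and 30.7% of the chromosome 8 regions were found in both replicates. DNA copy number was not measured.

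Some limits of the rule were examined. The nearest coding start lay 2502 bp away at the least and 8553 bp at the median. Just inside the limit, 191 regions lay 2501 to 3500 bp from a coding start, and just outside it 252 regions over coding sequence lay at 1501 to 2500 bp. By width, 31 regions of 3000 bp or more were kept, and 27 of 4000 bp or more would otherwise have met the rule. Coding sequence made up a median of 33.6% of a region, and 118 regions had fewer than 50 coding bases. The annotation may lack start sites, and starts from the RefSeq promoter table of a later build were therefore sought by an exact match of 50 bp. They were found in 27 exonic regions (1.62%, 1.07% to 2.34%), against 5.01% of intergenic and 54.3% of start-site regions. Without these 27, 27.2% of the exonic regions were found in both replicates and their median was 2.86 CpG per 100 bp. Among the regions named above, those of A930004D18Rik and Foxo6 and the one over the last exon of Unc13a held such a start. None of the 15 regions named for fold enrichment or CpG density held such a start.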

How the data were processed

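RYBP ChIP-seq of 2 replicates was used as deposited. According to the study's methods, paired-end reads of 37 bp were aligned to mm9 with Bowtie 1.1.2b, duplicates were removed, and peaks were called in each replicate with MACS2 2.0.10 under its broad option at a cutoff of 0.1. The authors' lists give for each peak a fold enrichment (a linear ratio), −log10 of the p-value and of the q-value, and a score, which was not used further; the authors' merged list gives positions only. The lists hold no read depth and none entered a calculation; the study's reporting summary gives more mapped reads to replicate 1, which has fewer peaks. Merged regions were classed with the GENCODE annotation of mm9 in Python 3.11.15 with numpy 2.4.6, scipy 1.17.1 and matplotlib 3.10.9. Starts are printed counting from 1; where a region's start came from replicate 2, it may be 1 bp late. A gene's start counted as occupied when a merged region lay within 2.5 kb of it. Intervals are exact (Clopper-Pearson, 95%). Interval code was tested on simulated data. Alternatives were a stricter −log10 q, other distances, overlap and width limits, single lists and other measures. Named were the 10 strongest, 3 widest, 5 densest and 3 sparsest regions, the most significant region of each single replicate, hosts of most regions, and up to 4 regions per gene list. Members, lists and rules were chosen with earlier results of these data known.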

Additional observations from a re-analysis of the deposited data

How the results depend on the processing

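The difference in CpG density from introns kept its sign in every alternative for which it was computed. The other results were counts, shares or medians without a comparison value in the alternatives, and no direction was read from them. Of the values in the alternatives, 31 stayed close and 36 moved. Close meant within 1.5 times for the number of regions and within 1 SD of the replicate lists for the others. Requiring a −log10 q of at least 2 moved every value, to 665 exonic regions, 58.6% in both replicates, 4.17 CpG per 100 bp, 42.0% over a last exon, a difference from introns of 2.16, 71.9% of regions in a host with an occupied start (81.0% of all exonic regions) and 0.738% of exons. Taking each list alone gave 974 to 1240 regions, 40.7% to 51.6% shared, 3.34 to 3.42 CpG per 100 bp, 34.2% to 34.9% over a last exon, a difference of 1.72 to 1.99, 73.0% to 78.9% of regions in such a host and 0.972% to 1.25% of exons. With the midpoint in coding sequence there were 688 regions, at 3.99 CpG per 100 bp and 38.7% over a last exon. With at least 100 bp of coding sequence the values were 3.12 CpG per 100 bp, 32.9% over a last exon, a difference of 1.66 and 1.46% of exons. Beyond 5 kb from start sites 28.6% lay over a last exon and 1.36% of exons carried a region; without a width limit 30.8% lay over a last exon, and by the longest transcript 28.0%. Covering 50% of the region in each replicate left 17.4% shared. CpG density was 2.67 in 300 bp around the midpoint and 4.37 in the coding part. The start of the host was occupied in both replicates for 66.2% of regions. Of the alternatives chosen after seeing the data, also leaving out starts of noncoding transcripts of coding genes gave 33.1% over a last exon (1406 regions), leaving out chromosomes 1, 8 and 11 gave 3.0 CpG per 100 bp, and leaving out regions with a RefSeq start moved no value beyond these limits. The cause of each shift was not tested. Peaks near the authors' threshold were shared less often than those far above it, and peak lists without reads do not show whether a region called in a single replicate had signal below the threshold in the other. No paired analysis was possible because only 1 group, the RYBP ChIP samples, had peak lists, and no result came from a test.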

Other observations

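In coding sequence under the exonic regions the C of a CpG lay at codon position 1 in 32.0%, at position 2 in 27.3% and at position 3 in 40.7% of 30990 CpG, against 36.8%, 23.9% and 39.3% of 582912 CpG in exons without a region. Regions that touched 1 coding exon numbered 1139, a pair of exons 319 and 4 or more exons 86. They were found in both replicates in 21.8%, 30.1% and 68.6% of cases. Their median widths were 599, 765 and 1788 bp. A merged region is wider when both replicates contribute and can then touch more exons, so these shares cannot be read apart from width.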
